A study of Homo sapiens with 9 samples.

Results

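The genes described here encode the proteins of tight junctions, desmosomes and gap junctions, together with the nectins and the polarity proteins found at the same cell borders. They were taken by gene name, a rule that uses no measured value but was proposed with results of these data known: every numbered claudin (CLDN), the connexins of the GJA, GJB and GJC series, the desmosomal cadherins (DSG and DSC), the plakophilins (PKP), the zonula occludens scaffolds (TJP), the nectins (PVRL1 to PVRL4 in the older nomenclature of the files), and OCLN, MARVELD2, MARVELD3, F11R, CGN, CXADR, CRB3, PARD3, PARD6B, LLGL2, DSP, PERP, PPL and EVPL. Members made up 65 of the 20878 genes counted, each represented by the transcript with the highest total count over the 9 libraries. Further gene names of the rule were missing from the counts and had an RPKM (read count per transcript length and library size) of 0 throughout, among them CLDN8, CLDN17, CLDN25, DSC1, GJA1 and GJA10.

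Polyadenylated RNA was sequenced from 3 lines of SW480, a human colorectal cancer cell line without functional APC, a tumour suppressor protein needed for the turnover of beta-catenin. The APC group is the derivative D2.15, which carries the pEF vector with myc-tagged APC; the CONTROL group is R38.7, which carries the empty pEF vector; and the SW480 group is the parental line. Each group held 3 libraries from parallel plates of 1 line, harvested 72 h after plating, so p-values measure the spread between plates and what is particular to a line cannot be told apart from its construct. All lines grew in RPMI with thioglycerol, hydrocortisone, insulin, foetal calf serum and antibiotics. D2.15 and R38.7 also received G418, which the parental line did not, and D2.15 was seeded more thinly, with 2 cells for every 3.35 plated of the others. Seeding and line therefore cannot be told apart in any comparison with the APC line.

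Read counts summed over genes lay between 17212703 and 18465029 for APC, between 16456738 and 19358025 for CONTROL, and between 18094384 and 18494010 for SW480. Levels of a gene across libraries are given as CPM, the read count per 1000000 counts of the library after TMM scaling, in which 3 counts amounted to 0.156 to 0.184. A ± after a CPM, an RPKM or a share is the SD of the 3 libraries of a line, and a ± after a log2 fold change is its SE. Transcript of APC itself, with construct and endogenous reads not separated, was 145 ± 5 CPM in the APC line against 47.9 ± 1.59 in CONTROL and 49.3 ± 2.46 in SW480, a difference of 3.02-fold from CONTROL and 2.94-fold from SW480. The keratin genes KRT8 and KRT18, the defining filament genes of simple epithelium, were abundant in every line (KRT8 2971 ± 107, 2883 ± 84.1 and 2585 ± 153 CPM in APC, CONTROL and SW480). EPCAM, an epithelial adhesion gene, stood at 382 ± 15.9, 42.4 ± 1.57 and 49.4 ± 1.16 CPM in APC, CONTROL and SW480, and the 7 epithelial markers summed to 6206–6376, 6023–6320 and 5400.4–6043 CPM. Of these 7, 4 were higher and 3 lower in APC than in SW480, and 4 higher and 2 lower than in CONTROL; the lower ones against SW480 were KRT18 (2160.0 ± 70.5 CPM in APC, 2797 ± 82.4 in CONTROL and 2306 ± 107 in SW480), KRT19 (647 ± 41.6, 373 ± 7.72 and 786 ± 67.7) and CDX2 (14.9 ± 0.65, 24.7 ± 1.72 and 27.1 ± 2.02). VIL1, the brush border villin gene, was low throughout, at 4.62 ± 0.0577, 0.414 ± 0.208 and 0.304 ± 0.112 CPM in the same order. The leukocyte marker PTPRC and the fibroblast markers COL3A1 and DCN were missing from the counts, and the summed level of the 5 leukocyte markers counted spanned 2.53–2.95 CPM in APC, 0.921–1.5 CPM in CONTROL and 2.42–2.64 CPM in SW480; ITGAM among them had 16, 21 and 17 counts in APC, 1, 0 and 1 in CONTROL and 1, 2 and 0 in SW480. Fibroblast markers summed to 11.7–13 CPM in APC, 12.8–15.8 in CONTROL and 16.2–18 in SW480, most of it COL1A1, while PDGFRB had 1, 1 and 2 counts in APC, 55, 51 and 66 in CONTROL and 77, 80 and 61 in SW480. Endothelial markers summed to 1.15–1.52, 1.04–1.29 and 0.698–0.75 CPM. The part of any of these markers in the results was not tested. In bulk RNA, fewer cells of one kind and less RNA per cell cannot be told apart.

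Tight junctions seal the space between epithelial cells near the apical surface. Claudins form their strands and set which ions pass, occludin and the MARVELD proteins lie within the strands, and the TJP scaffolds and cingulin tie them to actin. Desmosomes fasten neighbouring cells to the keratin filaments through desmogleins and desmocollins outside the cell and plakophilins and desmoplakin within it. Gap junctions are channels made of connexins that let small molecules pass from cell to cell, and nectins are immunoglobulin-type adhesion molecules that help start cell contacts. In colon epithelium these structures mark polarised, attached cells.

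Genes of the tight junction strands and of apical polarity were mostly higher in the APC line, and so was the desmosomal cadherin DSG2. Connexins and nectins went both ways: GJB2 and PVRL2 were higher, whereas GJB1, GJA3, PVRL1 and PVRL4 were lower. The main desmosomal plaque gene, DSP, passed the test against neither other line, and the scaffold gene TJP1 was lower in the APC line than in both. Other plaque and envelope genes went both ways: PKP3, PPL, EVPL and PERP were higher, whereas PKP1 and PKP2 were lower.

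Of the 65 members, 46 passed a filter on low counts (edgeR's filterByExpr) and 19 did not, with at most 14 counts in any library. In APC against SW480, 38 tested members passed the test, as did 72.5% of all genes. In that comparison 27 of the 46 tested members (58.7%) were higher and 11 (23.9%) lower at an adjusted p under 0.05 (edgeR quasi-likelihood test, Benjamini-Hochberg over 14255 genes), while 35.6% of all genes tested were higher and 36.9% lower. At a fitted fold of at least 2, 24 members (52.2%) were higher and 5 (10.9%) lower, against 7.91% and 11.1% of all genes. In APC against CONTROL, 40 members and 70.2% of all genes passed. Here 29 members (63%) were higher and 11 (23.9%) lower, against 34.8% and 35.4% of all genes. At a fold of at least 2, 23 (50%) were higher and 4 (8.7%) lower, against 8.63% and 9.69% of all genes. The median log2 fold change of the tested members was 1.09 against SW480 and 0.95 against CONTROL, beside −0.01 for all genes in both. The 2 comparisons share the APC libraries and are not independent of each other.

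Against SW480 alone, the libraries of the 2 lines did not overlap for 28 tested members that were higher in APC (60.9%; 35.9% of all genes) and 11 that were lower (23.9%; 37.2% of all genes). Against CONTROL alone, this held for 30 higher (65.2%; 36.3% of all genes) and 12 lower (26.1%; 37.1% of all genes). The 3 APC libraries lay above all 6 others for 27 of the 46 tested members (58.7%; 28.3% of all genes tested) and below all 6 for 10 (21.7%; 28.7% of all genes). A member can pass the filter only because it is high in 1 line, and such a member had to differ. This was so for DSC2, GJA5 and GJB6, which reached 10 counts in no CONTROL or SW480 library. Among the other 43 tested members, 24 were higher against SW480 and 26 against CONTROL. No share of all genes was computed under the same restriction, so these counts have no background beside them. The counts given before them include DSC2, GJA5 and GJB6. They also include PVRL4 among the lower members. With 2, 2 and 1 counts in APC, PVRL4 passed the filter through the CONTROL and SW480 libraries alone, so it had to be lower.

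**Figure D1:**
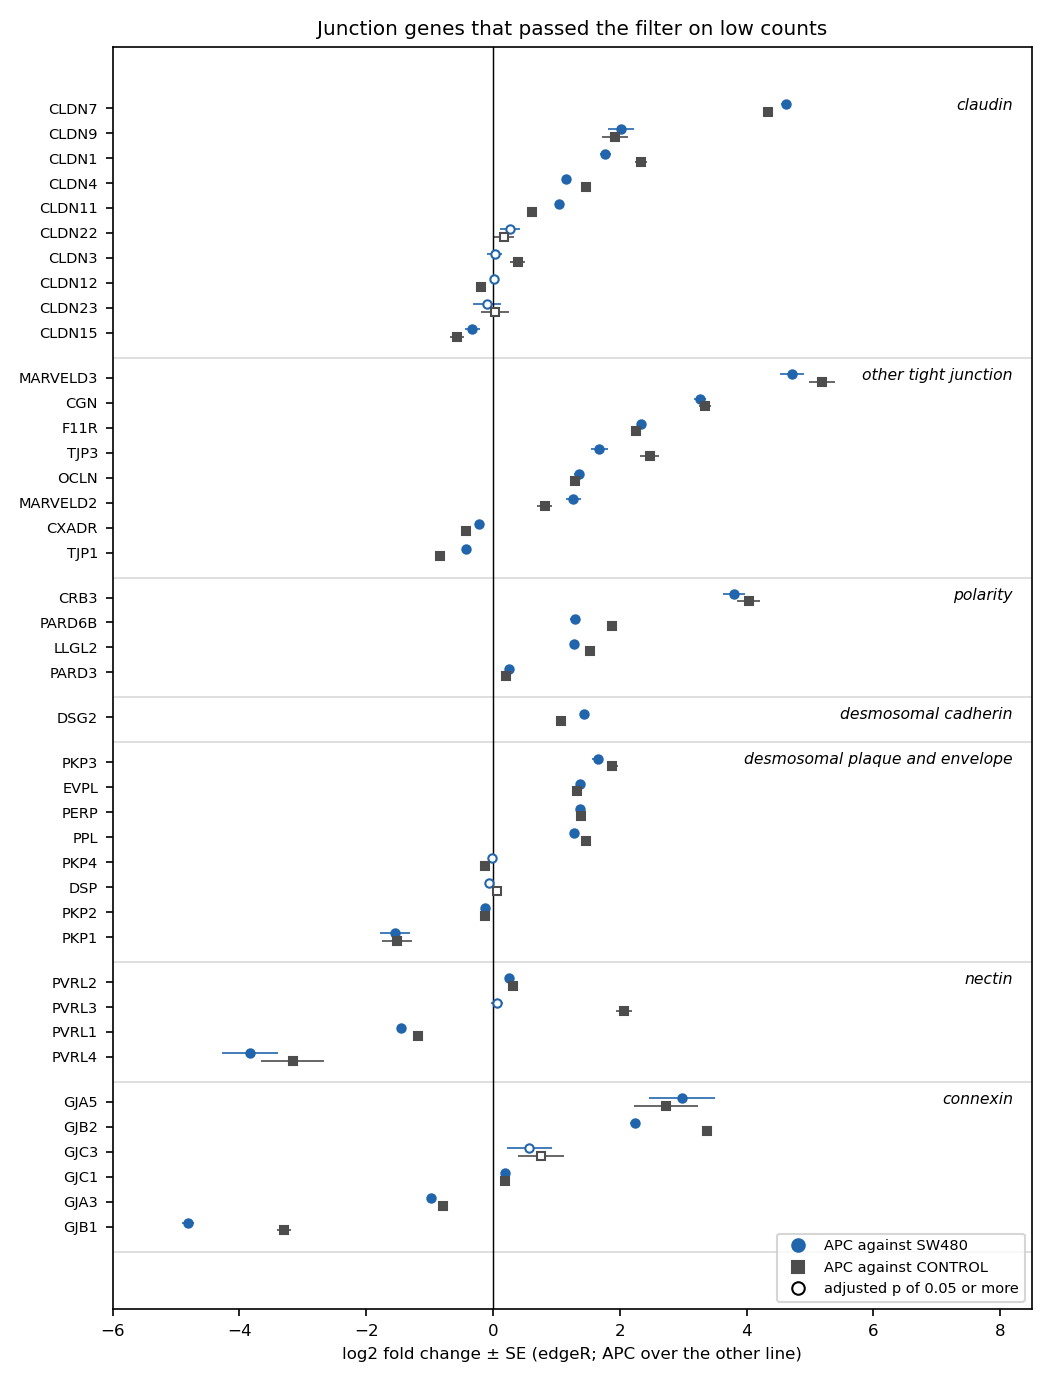
Fitted log2 fold change with its standard error for 41 of the 46 tested members, grouped by role, for APC against SW480 (circles) and APC against CONTROL (squares); open symbols did not pass the test. CLDN7 and MARVELD3 lie farthest to the right, at over 4 in both comparisons, and GJB1 farthest to the left. Among those not drawn, DSC2 and GJB6, with 3 or fewer counts over a group, are left out because their fitted values depend on a prior count.

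Promoter sequences are shown for some of the members that were higher in the APC line, among them CLDN7, which changed the most among the claudins. The sequences were picked and do not stand for all members that were higher. They are the 250 bases before a transcript start, from RefSeq on build GRCh38.p14, 5′ to 3′ on the strand of the gene. Capitals mark the E-box CAGGTG or its reverse complement CACCTG, a motif recognised by zinc finger repressors such as ZEB1. The windows are chr17:7262479-7262728 on the minus strand, chr19:6464021-6464270, chr5:69492297-69492546, chr18:31497927-31498176 and chr7:73830746-73830995, the last 4 on the plus strand, each the window nearest to the start of the counted transcript. In the same order, the transcript starts of these windows lay 0, 8, 255, 134 and 133 bases from the annotated start of the counted transcript.
CLDN7: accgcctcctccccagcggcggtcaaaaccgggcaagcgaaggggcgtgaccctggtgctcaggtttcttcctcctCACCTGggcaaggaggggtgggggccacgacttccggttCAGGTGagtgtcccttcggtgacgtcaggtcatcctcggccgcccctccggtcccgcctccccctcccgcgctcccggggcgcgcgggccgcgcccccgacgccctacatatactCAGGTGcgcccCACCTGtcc
CRB3: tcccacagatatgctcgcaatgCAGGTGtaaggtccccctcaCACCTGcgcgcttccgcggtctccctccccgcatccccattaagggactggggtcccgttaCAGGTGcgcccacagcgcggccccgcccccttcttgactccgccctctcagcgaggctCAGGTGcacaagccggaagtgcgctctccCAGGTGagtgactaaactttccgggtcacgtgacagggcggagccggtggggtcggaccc
OCLN: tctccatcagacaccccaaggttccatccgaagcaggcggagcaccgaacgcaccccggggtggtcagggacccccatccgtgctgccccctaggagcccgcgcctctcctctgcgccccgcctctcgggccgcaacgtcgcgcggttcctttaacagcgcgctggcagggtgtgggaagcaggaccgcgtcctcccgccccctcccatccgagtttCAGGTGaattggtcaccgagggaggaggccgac
DSG2: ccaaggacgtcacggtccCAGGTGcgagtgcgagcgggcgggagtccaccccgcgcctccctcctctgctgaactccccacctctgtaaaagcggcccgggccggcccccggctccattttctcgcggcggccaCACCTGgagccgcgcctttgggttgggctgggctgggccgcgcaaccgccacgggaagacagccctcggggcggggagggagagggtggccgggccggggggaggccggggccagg
CLDN4: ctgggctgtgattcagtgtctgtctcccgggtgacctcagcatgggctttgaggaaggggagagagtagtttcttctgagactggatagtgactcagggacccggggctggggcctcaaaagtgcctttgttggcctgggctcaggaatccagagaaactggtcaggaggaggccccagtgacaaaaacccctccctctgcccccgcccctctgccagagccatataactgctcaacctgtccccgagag
CLDN7 held 4 E-boxes, beginning at positions −174, −135, −20 and −9 relative to the transcript start, and CRB3 held 5, at −228, −208, −147, −89 and −60. DSG2 held 2, OCLN held 1 and CLDN4 held none. Windows were given for 40 of the 65 members, and 10 of those held the E-box on either strand in the window nearest to the counted transcript. Over the 250 upstream bases of every start listed for a gene, 13 of the 40 members (32.5%) held it in at least 1 window, against 20.6% of the 27305 genes with a window. Counted by window, it was found in 25% of the 56 windows of members and 17.5% of all 35116. The match was not limited to genes that were higher in the APC line: DSP also held 2, and GJA3 and PVRL4, both lower in the APC line, held 1 each. It was also absent from the nearest windows of other higher members, among them CLDN1, CLDN11, CGN, GJB2, MARVELD2, PERP and PVRL2. The TCF/LEF motif, searched as CTTTGAA or CTTTGAT on both strands, was found over every start for 1 member (2.5%) and for 7.24% of all genes. The grainyhead motif AACCNGTT was found for 1 member, CGN (2.5%), and for 1.85% of all genes, and its stricter form AACCGGTT for no member and 0.143% of all genes. Every AACCGGTT is also an AACCNGTT. These matches describe the windows and say nothing about binding.

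Among the claudins, 10 of 20 counted members were tested, with 5 higher and 1 lower against SW480, and 6 higher and 2 lower against CONTROL. Of all genes tested, 35.6% were higher and 36.9% lower against SW480, and 34.8% and 35.4% against CONTROL. The counts of the other families below stand beside the same shares, and each family is small. CLDN7, a sealing claudin of the intestine that also binds EPCAM, had 154, 147 and 137 CPM in the APC libraries, 6.82, 7.74 and 7.07 in CONTROL and 6.52, 6.32 and 5.05 in SW480. The APC libraries stood far above the other 6, which lay close together. CLDN7 was 24.5-fold above SW480 (4.61 ± 0.07 on the log2 scale; adjusted p = 2.1e-33 by edgeR) and 20.3-fold above CONTROL (4.34 ± 0.07, edgeR adjusted p = 5.7e-33).

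CLDN4, another barrier claudin, had 168, 159.9 and 154 CPM in the APC libraries, 55.3, 59.4 and 59.7 in CONTROL and 73.4, 72.6 and 72.1 in SW480. It was 2.21-fold and 2.77-fold above SW480 and CONTROL (edgeR adjusted p = 4.1e-22 and 6.7e-25). CLDN1, a claudin of tight epithelia and of skin, had 20.6, 22.5 and 21 CPM in APC, 4.08, 4.05 and 4.57 in CONTROL and 6.79, 6 and 6.02 in SW480. For both genes the 3 lines were fully apart, with CONTROL lowest. CLDN1 was 3.41-fold above SW480 and 5.03-fold above CONTROL (edgeR adjusted p = 1.4e-18 and 6.7e-21).

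CLDN11, best known from myelin and the testis barrier, was also an abundant claudin transcript, at 109 ± 0.44 CPM in APC, 70.7 ± 1.33 in CONTROL and 52.8 ± 2.8 in SW480. It rose 2.06-fold over SW480 and 1.53-fold over CONTROL (edgeR adjusted p = 2.8e-20 and 2.3e-14). CLDN9, a low transcript at 4.15 ± 0.77, 1.09 ± 0.168 and 1.02 ± 0.0552 CPM in APC, CONTROL and SW480, was 4.06-fold and 3.8-fold higher. CLDN15, which forms a cation channel in the intestine, was the member of the family that fell in both comparisons, to 7.63 ± 0.829 CPM against 11.4 ± 1.56 in CONTROL (edgeR adjusted p = 3.3e-05) and 9.58 ± 0.888 in SW480 (edgeR adjusted p = 0.011).

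The neighbours CLDN3 and CLDN4 on chromosome 7 differed in response. CLDN3, also a barrier claudin, had 10.9, 9.66 and 8.82 CPM in APC, 7.36, 7.31 and 7.85 in CONTROL and 11.8, 9.38 and 7.73 in SW480, and APC and SW480 overlapped. Its log2 fold change was 0.03 ± 0.12 against SW480 (edgeR adjusted p = 0.84) and 0.39 ± 0.12 against CONTROL (edgeR adjusted p = 0.0074). CLDN12, a claudin without the usual C-terminal motif for scaffold binding, stood at 63.8 ± 2.43, 72.7 ± 2.62 and 62.8 ± 1.01 CPM in APC, CONTROL and SW480, with a log2 fold change of 0.02 ± 0.05 against SW480 and −0.19 ± 0.05 against CONTROL (edgeR adjusted p = 0.69 and 0.00058); its exons also overlap GTPBP10 and CDK14. CLDN22 and CLDN23 passed the test in no comparison; CLDN22 lies beside the closely similar CLDN24 and over an exon of WWC2 on the other strand, so its few reads are uncertain. CLDN2, the leaky claudin of crypts and a gene often listed as a beta-catenin target, was too low to be tested, at 14, 7 and 8 counts in the APC libraries, 5, 4 and 4 in CONTROL and 2, 2 and 4 in SW480. CLDN10 and CLDN14 had no count in any library, and CLDN5, CLDN6, CLDN16, CLDN18, CLDN19, CLDN20 and CLDN24 had at most 5.

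Levels of different genes can be set side by side only per length, for which the authors' RPKM was used. The summed RPKM of the claudins was 209.7 ± 5.73 in the APC line, 85 ± 0.847 in CONTROL and 86 ± 3.38 in SW480 (SD, n = 3 each). CLDN4 held the largest share in each line, 36.7% ± 0.28 in APC, 33% ± 1.15 in CONTROL and 41.5% ± 1.05 in SW480. CLDN7 held 30.3% ± 0.641 in the APC line, against 3.72% ± 0.247 in CONTROL and 3.08% ± 0.319 in SW480, which placed it after CLDN4 in the APC line only. CLDN11 held 16.4% ± 0.629 in APC, 26.6% ± 0.208 in CONTROL and 19.9% ± 0.431 in SW480. Per length the APC line thus carried CLDN4 (77 ± 2.48 RPKM), CLDN7 (63.5 ± 3.07) and CLDN11 (34.4 ± 0.472) as its leading claudins, and the neighbours in that order did not overlap.

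**Figure D2:**
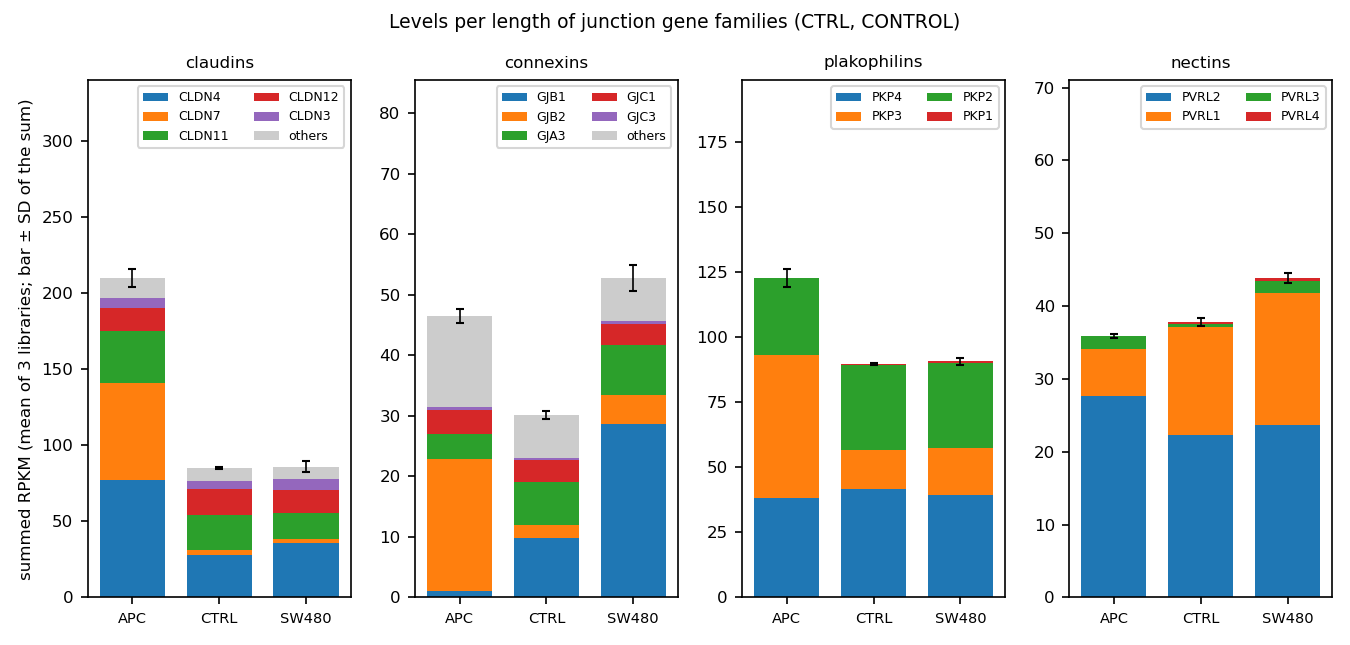
Summed RPKM of 4 junction gene families in each line (mean of 3 libraries, stacked by gene, with the other members summed in grey; the black bar is the SD of the sum). The claudin sum was 209.7 in APC against 85.0 and 86.0 in CONTROL and SW480, while in the connexins GJB2 leads in APC and GJB1 in the other lines.

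Of the 9 other tight junction genes, all tested, 6 were higher and 3 lower than in SW480, and 6 higher and 2 lower than in CONTROL. MARVELD3, a tetraspan protein of the strands, had 11.4, 10.7 and 10.9 CPM in the APC libraries, 0.269, 0.307 and 0.312 in CONTROL and 0.646, 0.268 and 0.322 in SW480. The APC libraries were apart from all others, of which SW480 replicate 1 was the highest. The rise was 26.3-fold over SW480 (4.72 ± 0.19, edgeR adjusted p = 3.4e-21) and 36.4-fold over CONTROL (5.19 ± 0.21, edgeR adjusted p = 2.1e-21). Its 3 transcripts, which may share reads, gave CPM ratios of 21.5 to 26.7 against SW480 and 31.2 to 37.2 against CONTROL.

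CGN encodes cingulin, which links the junction to the actin cytoskeleton. It had 33, 31.3 and 33.7 CPM in APC, 2.9, 3.19 and 3.53 in CONTROL and 3.72, 2.84 and 3.65 in SW480, 9.59-fold above SW480 and 10.1-fold above CONTROL (edgeR adjusted p = 2.9e-25 and 2.4e-25). F11R, which encodes the adhesion molecule JAM-A, had 76.8, 78.4 and 83 CPM in APC, 16.4, 16.7 and 16.9 in CONTROL and 15.9, 17.1 and 14.2 in SW480. Both genes showed the same layout, with CONTROL and SW480 overlapping and APC above. F11R was 5.03-fold and 4.76-fold above SW480 and CONTROL (edgeR adjusted p = 8e-27 and 2.2e-26).

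OCLN, which encodes occludin, had 23.2, 25.8 and 26.3 CPM in APC, 10.2, 9.83 and 10.6 in CONTROL and 10.2, 9.91 and 9.24 in SW480, and was 2.56-fold and 2.45-fold higher (edgeR adjusted p = 9.3e-17 and 3.4e-16). OCLN has a partial copy in the same chromosome region, so its reads may be split. MARVELD2, the neighbouring gene on chromosome 5, encodes tricellulin, which seals the corners where cells meet. Its level was 8.49 ± 0.674 CPM in APC, 4.82 ± 0.251 in CONTROL and 3.53 ± 0.106 in SW480, 2.4-fold and 1.76-fold higher in APC.

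TJP3 and TJP1, which encode scaffolds of the zonula occludens, moved in opposite directions. TJP3 (ZO-3) had 13.9, 11.5 and 11.5 CPM in APC, 2.15, 2.27 and 2.23 in CONTROL and 4.63, 4.29 and 2.63 in SW480, 3.19-fold and 5.54-fold higher (edgeR adjusted p = 1.5e-12 and 2.8e-15). TJP1 (ZO-1) fell instead, with 136, 142 and 150.5 CPM in APC, 259, 254 and 254 in CONTROL and 186, 192 and 200.1 in SW480. The 3 lines did not overlap, and TJP1 was 1.35-fold below SW480 and 1.79-fold below CONTROL (edgeR adjusted p = 1.7e-11 and 2.7e-19). CXADR, the coxsackie and adenovirus receptor gene, was lower in APC, at 31.8 ± 1.77 CPM against 42.5 ± 0.449 in CONTROL and 37 ± 0.425 in SW480.

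All 4 polarity genes were higher in the APC line in both comparisons. CRB3, the epithelial Crumbs protein that defines the apical membrane, had 16.8, 12.5 and 12.6 CPM in APC, 0.913, 0.983 and 0.675 in CONTROL and 1.29, 1.02 and 0.698 in SW480. APC replicate 1 was the highest of the 9, and CONTROL and SW480 overlapped. The increase was 13.9-fold over SW480 (3.79 ± 0.17, edgeR adjusted p = 1.2e-18) and 16.3-fold over CONTROL (4.03 ± 0.18, edgeR adjusted p = 8.2e-19). A further CRB3 transcript, with 70.3% of the counts of the main one, gave CPM ratios of 19.2 and 15.4. PARD6B, a partner of atypical protein kinase C in the apical complex, had 37.1, 37.1 and 40.1 CPM in APC, 10.1, 9.89 and 11 in CONTROL and 15, 17 and 14.7 in SW480, 2.44-fold and 3.68-fold above SW480 and CONTROL.

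LLGL2, a basolateral polarity protein that opposes the apical complex, had 55.2, 55.5 and 53.7 CPM in APC, 18.9, 19.3 and 19 in CONTROL and 25.1, 21.3 and 21.3 in SW480. Apical and basolateral genes thus were both higher, LLGL2 by 2.43-fold over SW480 and 2.87-fold over CONTROL (edgeR adjusted p = 1.9e-19 and 3.6e-21). PARD3, the scaffold of the same polarity complex as PARD6B, differed little, at 37.4 ± 1.31 CPM in APC against 32.4 ± 0.679 in CONTROL and 31.6 ± 1.68 in SW480, or 1.18-fold and 1.16-fold (edgeR adjusted p = 0.0003 and 0.0016).

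**Figure D3:**
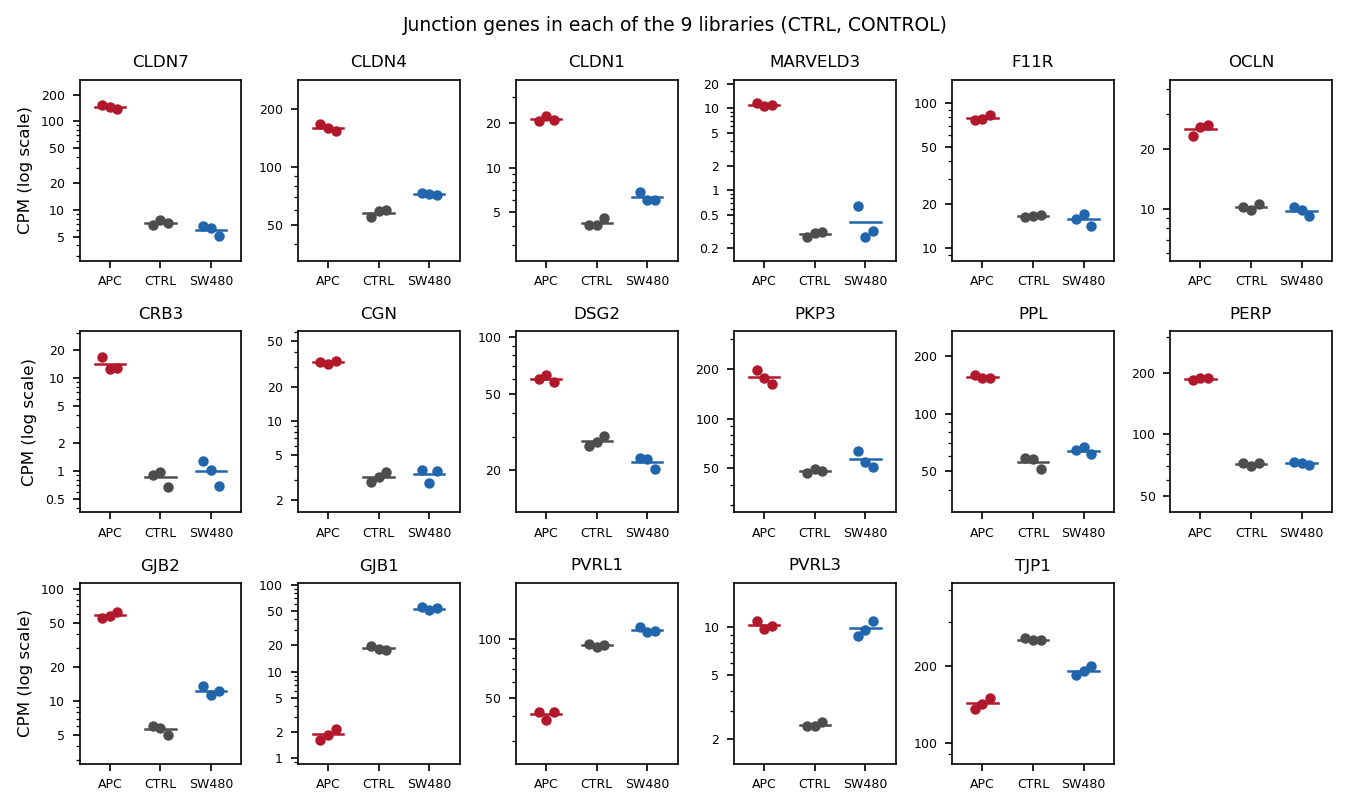
CPM (log scale, own axis for each gene) of 17 members in each of the 9 libraries, with the mean of each line as a bar. The APC libraries stand above all others for the first 13 genes, below all others for GJB1, PVRL1 and TJP1, and within the range of SW480 for PVRL3.

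Of the desmosomal cadherins DSG2 was nearly the whole family, with 94.7% ± 0.326 of their summed RPKM in APC, 99% ± 0.573 in CONTROL and 97.6% ± 0.509 in SW480. DSG2, the desmoglein of simple epithelia, had 59.8, 63 and 58 CPM in APC, 26.9, 28.3 and 30.4 in CONTROL and 23.2, 23 and 20.4 in SW480, and the 3 lines did not overlap. It was 2.72-fold above SW480 and 2.11-fold above CONTROL (edgeR adjusted p = 7.6e-21 and 1.2e-17). DSC2, its desmocollin partner in simple epithelia, had 45, 45 and 46 counts in the APC libraries, 0, 0 and 0 in CONTROL and 0, 2 and 1 in SW480. APC over SW480 gave a ratio of 48.1 (95% counting interval 16.1 to 236). Against CONTROL, taken at a floor of 3 counts per library, DSC2 was at least 15.5-fold higher.

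The other desmosomal cadherins, known from stratified epithelia such as skin, stayed near 0. DSC3 had 5, 9 and 6 counts in APC, 1, 2 and 2 in CONTROL and 3, 2 and 1 in SW480. DSG3 had 5, 4 and 4 counts in APC, 3, 1 and 7 in CONTROL and 5, 4 and 5 in SW480. DSG1 and DSG4 had at most 3 counts in any library. DSC3, DSC2, DSC1, DSG1, DSG4, DSG3 and DSG2 follow each other on chromosome 18, and of these only DSC2 and DSG2 had enough counts to be tested. The intervals and the floor take in counting error and no other error.

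Of the 8 genes of the desmosomal plaque and the envelope beside it, 4 were higher in the APC line in both comparisons, while 2 were lower than in SW480 and 3 lower than in CONTROL. PKP3, a plakophilin found in most desmosomes, had 195, 175 and 162 CPM in APC, 46.7, 49.9 and 48.1 in CONTROL and 63.9, 54.9 and 51.1 in SW480. The APC libraries lay above all others. PKP3 was 3.13-fold above SW480 and 3.68-fold above CONTROL (edgeR adjusted p = 9e-09 and 3.4e-09).

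PPL and EVPL encode periplakin and envoplakin, plakins that pair with each other at the cell border. PPL had 159, 154 and 154 CPM in APC, 58.9, 58.1 and 51.6 in CONTROL and 64.2, 66.9 and 61.3 in SW480. EVPL had 107, 93.9 and 95.7 CPM in APC, 39, 42.8 and 36.3 in CONTROL and 38.7, 37.8 and 37.5 in SW480. The partners rose by close to the same amount, PPL 2.43-fold over SW480 and 2.77-fold over CONTROL, and EVPL 2.6-fold and 2.52-fold (edgeR adjusted p at or under 3.2e-20 for each). PERP, a tetraspan protein of desmosomes and a p53 target, had 184, 189 and 187 CPM in APC, 72.3, 69.9 and 72.5 in CONTROL and 73.5, 72.8 and 70.5 in SW480. It was 2.58-fold and 2.61-fold higher, with CONTROL and SW480 overlapping (edgeR adjusted p = 2.4e-25 and 2e-25).

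DSP, which encodes desmoplakin, the link to keratin filaments, stood at 219 ± 9.27 CPM in APC, 208 ± 9.68 in CONTROL and 229 ± 12.6 in SW480. The APC libraries overlapped those of each other line, and its log2 fold changes were −0.07 ± 0.04 against SW480 and 0.07 ± 0.04 against CONTROL (edgeR adjusted p = 0.14 and 0.16). CONTROL and SW480 did not overlap, and DSP was 1.1-fold lower in CONTROL (edgeR adjusted p = 0.0079). PKP4, a plakophilin relative found at adherens junctions as well, had 198, 199.6 and 202 CPM in APC, 215, 216 and 222 in CONTROL and 197, 201 and 209 in SW480, with a log2 fold change of −0.02 ± 0.04 against SW480 and −0.12 ± 0.04 against CONTROL (edgeR adjusted p = 0.67 and 0.0036; 0.054 for CONTROL without CONTROL replicate 3). PKP2 was slightly lower, at 149 ± 2.78 CPM against 163 ± 1.45 and 163 ± 1.24 in CONTROL and SW480. PKP1, the plakophilin of stratified epithelia, fell 2.91-fold against SW480 and 2.87-fold against CONTROL and was low in every line, at 1.06 ± 0.461 CPM in APC, 3.09 ± 0.415 in CONTROL and 3.12 ± 0.473 in SW480.

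The make-up of the plakophilins differed between the lines. Per length PKP3 held 44.9% ± 2.46 of their summed RPKM in APC, 16.9% ± 0.489 in CONTROL and 19.8% ± 2.09 in SW480. PKP4 held 31% ± 1.48 in APC, 46.5% ± 0.617 in CONTROL and 43.4% ± 1.57 in SW480. PKP3 was thus the leading member in APC, and PKP4 in the other 2 lines.

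The nectins split. PVRL1 (nectin-1), a herpesvirus entry receptor, had 42.2, 38.4 and 42.3 CPM in APC, 94, 91.2 and 93.2 in CONTROL and 115, 109 and 111 in SW480. It was 2.72-fold below SW480 and 2.27-fold lower than in CONTROL, with no overlap of the 3 lines (edgeR adjusted p = 7.2e-24 and 4e-21). PVRL2 (nectin-2) had 91.4, 90.9 and 88.3 CPM in APC, 69.3, 74.5 and 72.8 in CONTROL and 75.9, 74.9 and 75.6 in SW480, 1.2-fold and 1.25-fold higher. PVRL2 held 77% ± 1.05 of the nectins' summed RPKM in APC, against 58.9% ± 1.17 in CONTROL and 53.8% ± 0.489 in SW480.

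PVRL3 (nectin-3), a binding partner of nectin-1, gave a different answer against each of the other lines. It had 11, 9.77 and 10.2 CPM in APC, 2.42, 2.4 and 2.55 in CONTROL and 8.89, 9.7 and 11 in SW480, so that APC and SW480 overlapped and CONTROL stood below both. PVRL3 was 4.19-fold higher in APC than in CONTROL (edgeR adjusted p = 7e-16), and its log2 fold change against SW480 was 0.07 ± 0.10 (edgeR adjusted p = 0.56). PVRL4 (nectin-4) had 2, 2 and 1 counts in APC, 13, 16 and 20 in CONTROL and 31, 22 and 28 in SW480. Its fitted folds, 14.3 and 8.94 lower in APC, are uncertain because every APC library lay under the floor of 3 counts.

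Of 14 connexins 9 were tested, and 5 were higher in APC in both comparisons, of which GJA5 and GJB6 passed the filter only through the APC libraries. Of the 9, 3 were lower than in SW480 and 2 lower than in CONTROL. The connexin that is the classic junction gene of many tissues, GJA1 (connexin 43), was listed at 0. GJB2 (connexin 26) had 55, 58 and 62.2 CPM in APC, 6.07, 5.84 and 5.04 in CONTROL and 13.6, 11.3 and 12.4 in SW480. The 3 lines did not overlap, and GJB2 was 4.69-fold above SW480 (2.23 ± 0.07, edgeR adjusted p = 2.4e-24) and 10.3-fold above CONTROL (3.37 ± 0.08, edgeR adjusted p = 1.3e-27).

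GJB1 (connexin 32), which typically pairs with connexin 26 in liver, moved the other way. It had 1.65, 1.85 and 2.16 CPM in APC, 19.8, 18 and 17.9 in CONTROL and 54.9, 50.9 and 53.5 in SW480. GJB1 was 28.1-fold below SW480 (−4.81 ± 0.10, edgeR adjusted p = 4.5e-30) and 9.84-fold below CONTROL (−3.30 ± 0.12, edgeR adjusted p = 5.3e-23). Each of the 3 lines stood clear of the others, with SW480 highest.

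GJB6 (connexin 30), the neighbour of GJB2 on chromosome 13, had 18, 19 and 14 counts in APC, 1, 0 and 0 in CONTROL and 0 in SW480. Against SW480, at the same floor, GJB6 was at least 6.01-fold higher, and APC over CONTROL gave a ratio of 52.5 (95% counting interval 9.01 to 2114). GJA3 (connexin 46), on the other side of GJB2, fell instead, to 24.4 ± 0.918 CPM in APC, against 42.1 ± 0.248 in CONTROL and 48.2 ± 3.39 in SW480 (edgeR adjusted p = 1.4e-13 and 2e-16). Genes that lie side by side in this cluster therefore differed in opposite directions.

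GJA5 (connexin 40) was low, with 14, 11 and 22 counts in APC, 4, 2 and 1 in CONTROL and 1, 1 and 4 in SW480, and it passed the filter on low counts through the APC libraries only. GJC1 (connexin 45) was 1.14-fold above each of the other lines, at 34.4 ± 1.22 CPM in APC, 30.3 ± 0.296 in CONTROL and 30.3 ± 1.04 in SW480. GJC3 passed the test in no comparison, at 0.724 ± 0.187 CPM in APC, 0.425 ± 0.00817 in CONTROL and 0.484 ± 0.0942 in SW480. GJA4, GJA9, GJB5 and GJB7 were too low to be tested, with at most 9 counts in any library.

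The summed RPKM of the connexins was 46.5 ± 1.17 in APC, 30.1 ± 0.695 in CONTROL and 52.8 ± 2.15 in SW480. GJB2 held 47.1% ± 2.2 of it in APC, 7.07% ± 0.529 in CONTROL and 9.01% ± 0.484 in SW480. GJB1 held 2.14% ± 0.259 in APC, 32.8% ± 1.55 in CONTROL and 54.3% ± 0.506 in SW480. The leading connexin was thus GJB2 in APC and GJB1 in the other lines.

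The comparison of CONTROL with SW480 shows how far lines without the APC construct differed in the same genes. Of the 46 tested members 23 passed the test, as did 50% of all genes. By direction, 8 members (17.4%) were higher and 15 (32.6%) lower, against 25.3% and 24.7% of all genes tested. Libraries of the 2 lines did not overlap for 8 members higher in CONTROL (17.4%; 28.5% of all genes) and 16 lower (34.8%; 28.2% of all genes). At a fold of at least 2, no member was higher (1.68% of all genes were) and 4 (8.7%; 3.22% of all genes) were lower in CONTROL, among them PVRL3 by 4.01-fold, GJB1 by 2.85-fold and GJB2 by 2.2-fold (edgeR adjusted p = 1.3e-14, 8.1e-20 and 5.1e-11). TJP1 was 1.33-fold higher in CONTROL than in SW480, and CLDN11 1.34-fold higher (edgeR adjusted p = 1.2e-10 and 4.2e-09). CLDN7, MARVELD3, CRB3, CGN and F11R, at least 4.76-fold higher in both APC comparisons, differed between CONTROL and SW480 by at most 1.38-fold. That cut is the fold of F11R over CONTROL, so it was set from these values. GJB2, just under it at 4.69-fold over SW480, was 2.2-fold lower in CONTROL than in SW480. DSC2, GJA5 and GJB6 lay above the cut by fitted fold, but had too few counts in CONTROL and SW480 to compare those lines. GJB1, lower in APC by fitted folds above 4.76 in both, was 2.85-fold lower in CONTROL than in SW480. PVRL4 was 1.6-fold lower in CONTROL than in SW480. How far PVRL4 fell in APC is uncertain, as the APC libraries held 2, 2 and 1 counts.

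Some members share exons with another gene in the GENCODE annotation, and no source used here says whether reads were counted by strand. CLDN7 overlaps ELP5 on the opposite strand, and ELP5 was lower in the APC line, at 46.1 ± 1.01 CPM against 63.3 ± 3.07 in CONTROL and 68.2 ± 0.509 in SW480. MARVELD3 overlaps PHLPP2, which stood at 24.2 ± 0.744, 30.1 ± 1.06 and 26.7 ± 1.53 CPM in APC, CONTROL and SW480. Both partners thus moved opposite to the member. CRB3 overlaps DENND1C, which was higher in APC too, at 8.22 ± 0.673 CPM against 3.09 ± 0.123 in CONTROL and 2.18 ± 0.113 in SW480; how far these 2 genes share reads was not tested. DSG2 and its antisense RNA DSG2-AS1 were likewise both higher, the antisense RNA at 1.58 ± 0.0662 CPM against 0.603 ± 0.155 in CONTROL and 0.483 ± 0.193 in SW480, which was not tested for shared reads either.

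Genes that belong to the same structures but are not members did not share one direction. Of 29 tested genes on a list of further tight junction and polarity proteins, 9 were higher and 14 lower than in SW480. Against CONTROL, 7 were higher and 16 lower, and the medians were −0.11 and −0.14 on the log2 scale. Of all genes, 35.6% were higher and 36.9% lower than in SW480, and 34.8% and 35.4% than in CONTROL. The same shares apply to the lists that follow. Among more abundant genes of the list, LSR was 2.11-fold and 2.58-fold higher than in SW480 and CONTROL. INADL was 2.72-fold and 2.09-fold higher, while AMOTL2 was 1.55-fold and 1.69-fold lower. ILDR1, a tricellular junction protein, was higher, at 4.04 ± 0.358 CPM in APC, 0.449 ± 0.096 in CONTROL and 0.394 ± 0.111 in SW480. AMOTL1, a member of the angiomotin family, was lower, at 0.153 ± 0.0372 CPM in APC, 5.9 ± 0.215 in CONTROL and 6.36 ± 0.898 in SW480. Its fitted folds of 40 and 37.1 are uncertain, as the APC libraries held only 2, 3 and 3 counts. AMOT, of the same family, was instead higher, at 51.7 ± 1.4 CPM in APC, 31.4 ± 2.58 in CONTROL and 15.4 ± 0.604 in SW480. CGNL1 and CRB2, close relatives of CGN and CRB3, were lower: CGNL1 stood at 0.0754 ± 0.0299 CPM in APC, 0.646 ± 0.0942 in CONTROL and 0.644 ± 0.16 in SW480. CRB2 had 0.437 ± 0.184 CPM in APC, 4.64 ± 0.57 in CONTROL and 5.25 ± 0.781 in SW480. Within these pairs of relatives, the member fixed by name was higher in the APC line and its relative lower. The size of the fall of CGNL1 is uncertain, as the APC libraries held only 2, 1 and 1 counts. Other relatives on the list varied: LLGL1, a relative of LLGL2, was lower in both comparisons. PARD6A, a relative of PARD6B, was 1.4-fold lower than in SW480 but 1.5-fold higher than in CONTROL.

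ESAM and CLMP, immunoglobulin-type junction proteins, were lower as well, by 2.98-fold and 2.38-fold against SW480 and by 4.66-fold and 6.14-fold against CONTROL. Of 8 tested genes of the desmosome and cornified envelope list, 4 were higher and 3 lower than in SW480, and 4 higher and 2 lower than in CONTROL. JUP, which encodes plakoglobin, the catenin shared by desmosomes and adherens junctions, was 2.03-fold and 2.54-fold higher, at 83.7 ± 3.09 CPM in APC, 32.9 ± 1.73 in CONTROL and 41.2 ± 4.06 in SW480. Of 3 tested genes on the list of other connexins and pannexins, 0 were higher in APC in either comparison, and 3 were lower than in SW480 and 2 lower than in CONTROL (edgeR, adjusted p under 0.05).

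Transcription factor genes known for their part in epithelial junction expression were read beside the members. Of 11 tested on the list, 7 were higher and 4 lower than in SW480, and 7 higher and 3 lower than in CONTROL. Of all genes, 35.6% were higher and 36.9% lower than in SW480, and 34.8% and 35.4% than in CONTROL. The list mixes repressors with activators, so a count by direction has no single reading. ELF3, an epithelial ETS factor, had 55.1, 55.9 and 60.3 CPM in APC, 3.81, 3.87 and 3.79 in CONTROL and 3.88, 3.86 and 3.12 in SW480. EHF, another ETS factor, had 84.3, 86.8 and 84.3 CPM in APC, 2.42, 2.15 and 2.96 in CONTROL and 16.7, 18 and 17.2 in SW480. Both were highest in APC, and EHF was also 6.83-fold lower in CONTROL than in SW480.

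ZEB1, a repressor of epithelial junction genes, had 7.75, 9.43 and 7.07 CPM in APC, 39.8, 44.8 and 44.3 in CONTROL and 44, 42.9 and 43.7 in SW480, 5.38-fold and 5.31-fold lower. SNAI2 and SNAI1, repressors of the same genes, were higher instead. SNAI2 stood at 8.23 ± 0.604 CPM in APC, 2.64 ± 0.671 in CONTROL and 1.15 ± 0.187 in SW480, and SNAI1 at 7.86 ± 0.357, 5.12 ± 0.381 and 4.55 ± 0.543 in the same order. OVOL2, which opposes ZEB1, stood at 3.63 ± 0.307 CPM in APC, 0.444 ± 0.14 in CONTROL and 0.662 ± 0.0607 in SW480, and KLF4 at 28.8 ± 0.737, 6.92 ± 0.199 and 4.67 ± 0.662 in the same order. KLF5 was lower, at 36.5 ± 1.73 CPM in APC, 97.1 ± 3.67 in CONTROL and 99.8 ± 2.76 in SW480. GRHL2, a grainyhead factor known to activate junction genes, had 1, 0 and 0 counts in APC, 1, 1 and 0 in CONTROL and 1, 2 and 2 in SW480. Its relative GRHL3 had 12, 16 and 9 counts in APC, 0, 3 and 2 in CONTROL and 0, 0 and 1 in SW480, and GRHL1 stood at 11.8 ± 0.701 CPM in APC, 10.1 ± 0.709 in CONTROL and 8.5 ± 1.15 in SW480, higher in APC in both comparisons. The part of any of these factors in the levels of the members was not tested.

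**Figure D4:**
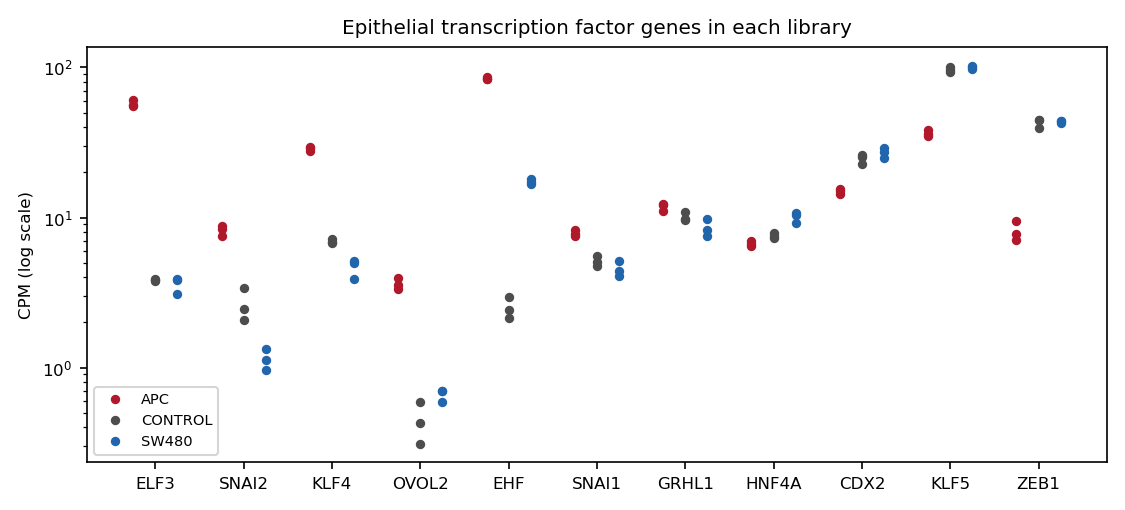
CPM (log scale) of 11 transcription factor genes of epithelial cells in each library, ordered by their change between APC and SW480. ELF3, SNAI2, KLF4, OVOL2, EHF, SNAI1 and GRHL1 are highest in the APC libraries, and ZEB1, KLF5, CDX2 and HNF4A lowest.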

How the data were processed

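Read counts per RefSeq transcript were deposited as whole numbers, with no normalisation named in the file headers. The authors' RPKM values were equal to the count over transcript length times 1 constant per library for 100% of values (relative tolerance 0.0001). Trimmomatic, TopHat, GATK and the build hg19 are named, with no versions, in the submitters' processing notes; no source used here gives the counting tool or the annotation release. Of 65 gene names altered to dates, 62 were repaired by accession.

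Counts of 1 transcript per gene were fitted with edgeR 4.0.16 in R 4.3.3 (TMM, filterByExpr, robust glmQLFit and glmQLFTest) over all 9 libraries, and p-values were adjusted over 14255 genes at a threshold of 0.05. The SE is the log2 fold change over the square root of F, and the biological coefficient of variation was 3.56%. Replicates differed by more than sampling noise (chi-square per degree of freedom 1.36 to 5.63). The fit was tested on simulated data.

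Library values are printed for members with a mean CPM of at least 5 in the highest line and a called fold of at least 2 in the same direction in both APC comparisons, for the most abundant member of each family, and for members called at a fold of at least 2 between CONTROL and SW480. CLDN3 and TJP1, and the promoter of CRB3, were added after their values were seen. Some members that meet these rules are not reported here. The members and lists were chosen with earlier results of these data known. As alternatives, DESeq2 1.42.0 replaced edgeR, RLE replaced TMM, the filter was dropped, transcripts were summed, limma 3.58.1 was run on log2 of RPKM plus 1 or plus 0.1, only 6 libraries were fitted, the replicate number was added as a block, and each library was left out. All 65 members were matched to RefSeq genes of GRCh38.p14; printed coordinates are of that build.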

Additional observations from a re-analysis of the deposited data

How the results depend on the processing

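Counts of members called stayed within 1.5 times under every alternative run. They ranged from 37 to 40 in APC against SW480 (38 in the fit reported), from 39 to 42 in APC against CONTROL (40) and from 19 to 25 in CONTROL against SW480 (23). No APC against CONTROL value among the named genes changed sign. Changes of sign elsewhere were limited to differences near 0: PKP4 against SW480 (−0.0362 to 0.00663 over the libraries left out, positive without SW480 replicate 3), PVRL3 against SW480 (−0.0045 to 0.154, negative without SW480 replicate 1), and EVPL (−0.0131 to 0.101) and PERP (−0.0309 to 0.00239) in CONTROL against SW480, both turned by leaving out CONTROL replicate 2. The cause was not tested. With a replicate block 38, 40 and 24 members were called in the 3 comparisons; same-numbered replicates correlated at −0.0889 to 0.159 in their deviations from the group means, so the numbers are not shown to pair the plates. The call of CLDN7 between CONTROL and SW480 (adjusted p = 0.045) was lost in 6 alternatives, that of PKP4 in 4 and that of LLGL2 without SW480 replicate 1, and PKP3, not called there, was called in 10. The call of PKP4 against CONTROL was lost without CONTROL replicate 3 (−0.09, adjusted p = 0.054). No difference could be tested for the 19 members under the filter on low counts.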
